A study of Mus musculus with 22 samples.

Results

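Irs1, Acvr1, Dnpep, P4ha1, Igfbp7, Pxmp2, Pole, Wdhd1 and Socs4 are mouse genes that the study shows as examples in genome browser views of G-quadruplex (G4) signal. The 9 genes were taken by name from those views, out of 26180 genes with a curated RefSeq transcript, 21000 of them protein-coding. Irs1, Acvr1 and Dnpep were shown as example G4 sites, and the other 6 were shown for lower G4 at their starts after TERRA knockdown (KD), so the G4 values of those 6 are given as a description and are not tested. In the view of example sites the paper marks places where G4 peaks coincide with G4 sites of other methods (CUT&Tag and in vitro G4-seq). The views show coverage normalized to mapped reads, whereas called peaks are described here. The genes lie on 7 separate promoters, because Pxmp2 and Pole start 151 bp apart and Wdhd1 and Socs4 start 63 bp apart, each pair reading away from the other.

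The cells were mouse embryonic stem (ES) cells of CAST/Ei x 129/Sv/Jae background, grown with LIF, from which the feeder layer had been removed before transfection. The control group received a scramble LNA gapmer and the treated group an LNA gapmer against TERRA, and both were collected after 12 h. ATRX, H3K9me3 and G4 (BG4 antibody) were measured by ChIP-seq and accessible chromatin by ATAC-seq, each in 2 scramble KD and 2 TERRA KD samples, which gave 16 peak lists. All groups are of the same cell line, so each sample is a culture and not an animal, and peaks are placed on a reference genome of another strain.

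TERRA is an RNA transcribed from subtelomeric regions into the telomere, and its repeat is rich in G. A G4 is a 4-stranded fold that DNA can take where runs of G follow each other closely, as they often do near promoters. ATRX is a chromatin remodeler that binds repeats and G-rich DNA and helps to maintain H3K9me3, a histone mark of silent chromatin. ATAC-seq marks DNA that is open to a transposase, which at most active promoters includes the transcription start site (TSS).

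The promoter sequences differ in how many G runs they hold, and the stretches on which the results turn are shown here from the GRCm38 genome, 5′ to 3′. Between the starts of Wdhd1 and Socs4 lie 62 bp (chr14:47276858-47276919, plus strand) that are 83.9% G and C. The capitals mark runs of at least 3 G or 3 C, of which there are 1 of G and 4 of C. The 4 C runs are G runs on the other strand, and 1 of the loops between them is longer than 7 bases.
Wdhd1-Socs4: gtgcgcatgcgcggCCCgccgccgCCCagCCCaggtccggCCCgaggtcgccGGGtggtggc

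A G4 motif was searched for on both strands within 1 kb of each TSS, as 4 runs of at least 3 G separated by loops of 1 to 7 bases. Such a motif was found at 54.9% of all TSS and at 6 of the 9 genes, which is 5 of the 7 promoters. Irs1 and Acvr1 held 7 motifs each, Pxmp2 and Pole shared 3, P4ha1 held 3 and Igfbp7 held 1. Dnpep, Wdhd1 and Socs4 held none. With loops of up to 12 bases, a limit chosen after these counts were seen, Wdhd1 and Socs4 shared 2 and Dnpep still held none.

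The motifs below are shown on the strand that carries the G runs, with the runs in capitals, because they lie inside the G4 peaks described next. The Irs1 motif is 239 to 214 bp upstream on the sense strand, that is, the non-template strand (chr1:82291653-82291678, minus strand).
Irs1: GGGGGtggagaGGGGcGGGcgtGGGG
The Acvr1 motif is 54 to 36 bp upstream on the antisense strand (chr2:58566864-58566882, plus strand), as were 6 of its 7 motifs.
Acvr1: GGGaGGGcgcGGGGcGGGG
The P4ha1 motif is in the first intron, 341 to 370 bp downstream on the antisense strand (chr10:59323637-59323666, minus strand).
P4ha1: GGGGGtGGGGGGacggcgaGGGaagctGGG
The Igfbp7 motif is 110 to 90 bp upstream on the sense strand (chr5:77408135-77408155, minus strand).
Igfbp7: GGGcGGGcgaagcGGGGcGGG
Dnpep had G4 peaks in the scramble KD lists without a motif, so the 250 bp before its TSS are shown (chr1:75317638-75317887, minus strand, RefSeq promoter table of GRCm38.p6). Its 9 runs of G are spread over the stretch, and 7 of the 9 genes had an entry in that table. The G4 peak of scramble KD replicate 1 reached only 72 bp into this stretch. That of scramble KD replicate 2 began 513 bp upstream of the TSS and covered all of it.
Dnpep: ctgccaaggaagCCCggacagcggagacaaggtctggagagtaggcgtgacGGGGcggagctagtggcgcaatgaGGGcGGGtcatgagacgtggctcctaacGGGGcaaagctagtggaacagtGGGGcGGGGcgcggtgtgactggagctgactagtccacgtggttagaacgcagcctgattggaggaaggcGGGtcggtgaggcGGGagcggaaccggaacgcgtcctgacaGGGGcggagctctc

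The starts differed in G and C content and were all above the median of genes. Over 1 kb on either side of the TSS, G and C made up from 52.4% (Socs4) to 65.6% (Acvr1) of bases against a median of 50.9% over all TSS. The ratio of observed to expected CpG ran from 0.657 (Irs1) to 0.833 (Socs4) against a median of 0.439.

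The depth of the lists, after the removal of duplicates, was 2961038 to 24588605 tags for G4, 5976014 to 7883648 for ATAC, 4104486 to 15506154 for ATRX and 5435286 to 13898785 for H3K9me3. The G4 libraries of a condition were called against 1 shared input library. The ATRX and H3K9me3 libraries of the same condition and replicate number also shared 1 input library. Of the ES cell markers, 8 of 10 had an ATAC peak at the TSS in all 4 lists, Pou5f1 and Sox2 among them, while Nanog and Esrrb did not. Of all TSS, 57.1% had one in all 4 lists. Of the fibroblast markers 4 of 10 did, namely Col1a1, Col1a2, Thy1 and Twist2. Their part in the results was not tested. TERRA KD replicate 2 stood apart in G4: with 13127555 tags it gave 225024 peaks, more than the 140119 of scramble KD replicate 1 and the 173699 of TERRA KD replicate 1, and yet it had a G4 peak at the fewest TSS.

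All 9 genes had an open TSS in every ATAC list. An ATAC peak lay within 1 kb of the TSS of 9 of 9 genes in scramble KD replicates 1 and 2 and in TERRA KD replicates 1 and 2, where 59.4%, 63.5%, 62.3% and 64.2% of all TSS had a peak. A peak in all 4 lists was found at 57.1% of all TSS. Of all TSS, 45.9% had an ATAC peak in all 4 lists and neither an ATRX nor an H3K9me3 peak in any list, and all 9 genes were among them. The mean number of genes with an ATAC peak was 9 ± 0 (SD, n = 2) in both conditions. With 2 samples against 2, an exact permutation test cannot go below 0.333, and no p is given for the counts of these chosen genes.

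**Figure D1:**
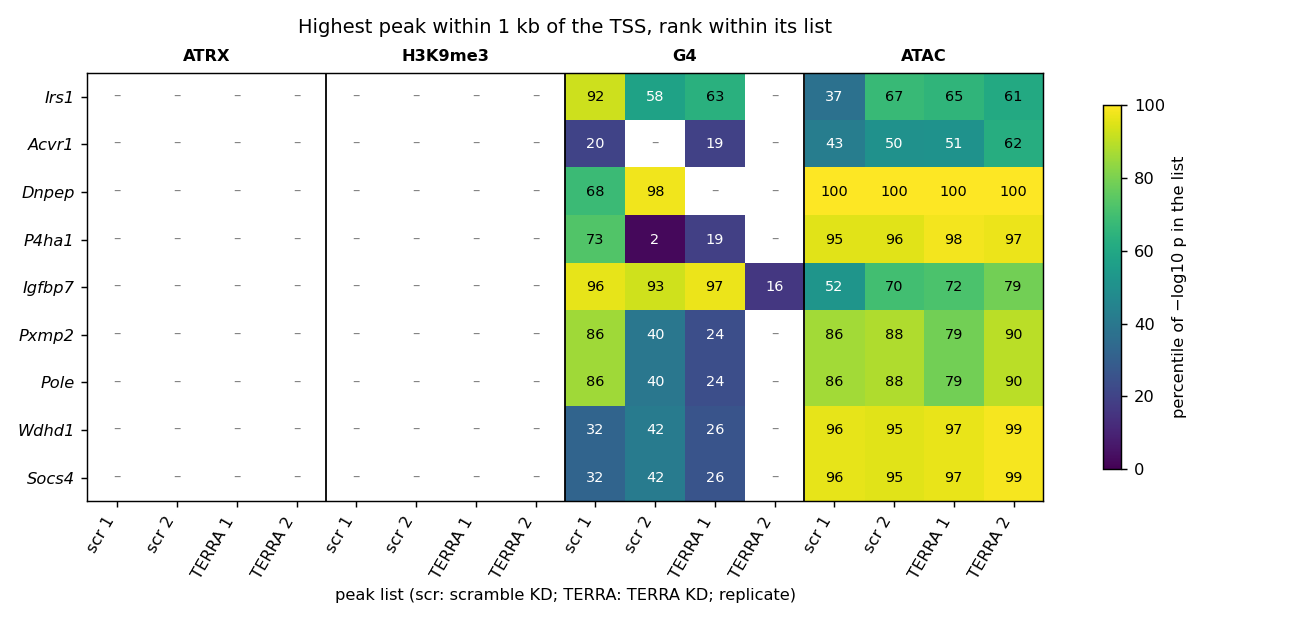
Percentile, within its own list, of the −log10 p of the highest peak within 1 kb of the TSS, for the 9 genes (rows) in the 16 lists (columns), with a dash where no peak was called. The ATRX and H3K9me3 columns are empty, the ATAC columns are full, and the G4 column of TERRA KD replicate 2 holds Igfbp7 and no other gene.

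The rank of the ATAC peaks by p separated the promoters from each other more than the conditions did. Dnpep, an aspartyl aminopeptidase that removes acidic residues from the ends of peptides, had the highest ATAC rank. Its peak was at the 99.8th and the 99.7th percentile of the scramble KD lists and at the 99.9th of both TERRA KD lists. The shared promoter of Wdhd1, which couples the helicase to DNA polymerase alpha at the fork, and Socs4, a cytokine signalling suppressor, was at the 95.3rd to the 98.6th percentile. P4ha1, the catalytic subunit of the enzyme that hydroxylates proline in collagen, was at the 95.5th to the 98.3rd percentile. By fold enrichment, P4ha1 or the Wdhd1 and Socs4 promoter was the highest of the 9 genes in each list, and Dnpep in none. At the low end were Acvr1, a type I receptor for bone morphogenetic proteins (42.6th to 62.3rd percentile), and Irs1, the adaptor that carries the signal of the insulin receptor (37.4th to 67.2nd percentile).

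No ATAC difference between the conditions passed the test at any of the 7 promoters. Enrichment was compared with limma on the quantile-normalized log2 fold enrichment of the highest peak at 14950 TSS with a peak in all 4 lists. At the Pxmp2 and Pole promoter the log2 values were 3.11 and 2.84 in the scramble KD samples against 2.65 and 2.80 after TERRA KD, a difference of −0.25 ± 0.17 (SE, n = 2 per condition, limma adjusted p = 0.998). At Igfbp7 they were 2.53 and 2.73 in the scramble KD samples against 2.83 and 2.93 after TERRA KD, a difference of 0.25 ± 0.16 (SE, limma adjusted p = 0.990). Both samples of TERRA KD were thus lower at the former and higher at the latter.

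The other differences were smaller. At the Wdhd1 and Socs4 promoter the difference was 0.18 ± 0.17 (SE), at Acvr1 0.16 ± 0.17, at Dnpep 0.15 ± 0.16, at P4ha1 0.10 ± 0.16 and at Irs1 0.06 ± 0.18, and all had a limma adjusted p of 0.998. Both TERRA KD samples were above both scramble KD samples at 3 of the 9 genes (Dnpep, P4ha1, Igfbp7) and at 15.9% of the TSS tested. Both were below at 2 genes (Pxmp2, Pole, which share 1 peak) and at 17.0% of the TSS tested. Over all TSS, 0.00% were called lower and 0.00% higher at an adjusted p of 0.05, and 751 had an unadjusted limma p of at most 0.05, 422 of them higher in TERRA KD and 329 lower.

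**Figure D2:**
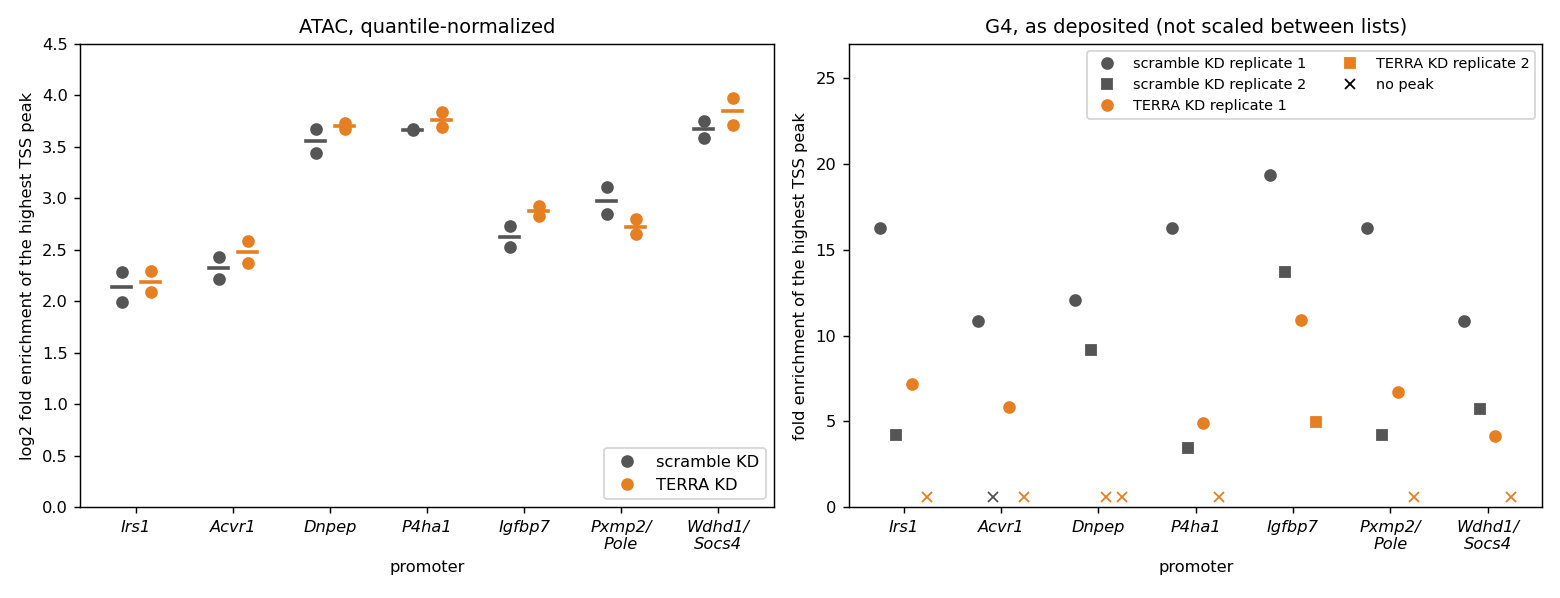
Left, quantile-normalized log2 fold enrichment of the highest ATAC peak at each promoter in the 2 scramble KD and 2 TERRA KD samples (points), with bars at the mean. Right, fold enrichment of the highest G4 peak as deposited, with a cross where no peak was called: the scramble KD replicate 1 point is the highest at each promoter, and 6 of 7 promoters have a cross for TERRA KD replicate 2.

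G4 peaks were found at the TSS of nearly all 9 genes in 3 lists and of 1 gene in the remaining list. A G4 peak lay within 1 kb of the TSS of 9 of 9 genes in scramble KD replicate 1, where 41.2% of all TSS had one. It did so at 8 genes in scramble KD replicate 2 (64.1% of all TSS), which lacked Acvr1. It did so at 8 genes in TERRA KD replicate 1 (48.5% of all TSS), which lacked Dnpep, and at 1 gene, Igfbp7, in TERRA KD replicate 2 (22.1% of all TSS). The genes were shown in the study for their G4, and the scramble KD counts are read as a description.

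The mean number of genes with a G4 peak was 8.5 ± 0.71 (SD, n = 2) in scramble KD and 4.5 ± 4.9 in TERRA KD, a difference of −4, which was less than the SD of the TERRA KD samples. Within a replicate number, 9 genes under scramble KD stood against 8 under TERRA KD in replicate 1, and 8 against 1 in replicate 2. With all peaks called at a p of 0.01, the difference rests on TERRA KD replicate 2, without which it was −0.5. It was −7.5 without TERRA KD replicate 1. The counts were read against open promoters: at the 14950 TSS with an ATAC peak in all 4 lists the share with a G4 peak was 55.5% and 70.3% in the scramble KD lists against 60.9% and 13.5% in the TERRA KD lists.

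**Figure D3:**
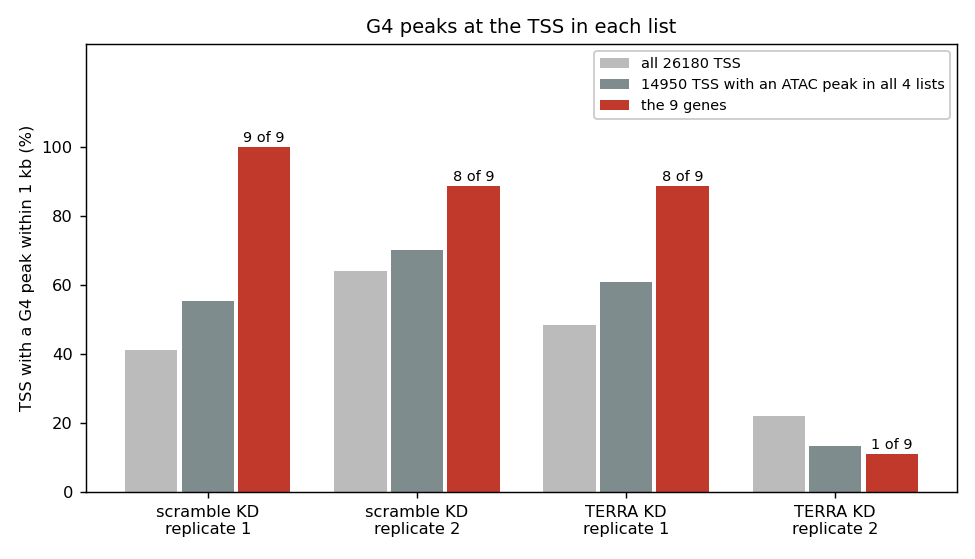
Share of TSS with a G4 peak within 1 kb in each of the 4 G4 lists, over all 26180 TSS, over the 14950 TSS with an ATAC peak in all 4 lists, and over the 9 genes (bars start at 0). All 3 bars are at their lowest in TERRA KD replicate 2, where 1 of 9 genes had a peak.

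By pattern, a G4 peak was present in both scramble KD lists at 8 genes and 34.7% of all TSS, and in both TERRA KD lists at 1 gene and 14.8%. Presence in both scramble KD lists and TERRA KD replicate 1 with absence from TERRA KD replicate 2 was the pattern of 6 genes (Irs1, P4ha1, Pxmp2, Pole, Wdhd1, Socs4), of 20.0% of all TSS and of 30.1% of the TSS with ATAC peaks in all 4 lists. The reverse, with the peak kept in TERRA KD replicate 2 and absent from replicate 1, was found at 0 genes and 0.783% of TSS. Only Dnpep had a G4 peak in both scramble KD lists and in neither TERRA KD list, a pattern of 4.74% of all TSS. Only Igfbp7 had one in all 4 lists, as did 9.16% of TSS. These are numbers of called peaks, and where no peak was called, enrichment over input was below what that list could detect.

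Igfbp7, a secreted protein that binds insulin and, with low affinity, insulin-like growth factors, had the most strongly ranked G4 peak of the 9 genes in scramble KD replicate 1 and TERRA KD replicate 1. Its TSS peak held 19 and 68 tags under scramble KD against 40 and 30 under TERRA KD. It ranked at the 96.4th and 92.7th percentile of the scramble KD lists, at the 97.3rd of TERRA KD replicate 1 and at the 16.4th of TERRA KD replicate 2. The rank was thus as high in TERRA KD replicate 1 as in scramble KD and low only in TERRA KD replicate 2. The 4 peaks had nearly the same borders, and the stretch they shared ran 1104 bp (chr5:77407320-77408423), from 378 bp upstream to 725 bp downstream, over the motif, the first exon and the start of the first intron.

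The fold enrichment of this Igfbp7 peak was 19.4 and 13.7 under scramble KD against 10.9 and 4.97 under TERRA KD. The deposited fold enrichment is not on one scale between lists, since the median over all TSS peaks was 10.8 and 5.52 in the scramble KD lists against 6.74 and 4.72 in the TERRA KD lists. After quantile normalization over the 2398 TSS with a G4 peak in all 4 lists, the log2 values were 3.41 and 4.12 under scramble KD against 3.33 and 3.14 under TERRA KD. The difference was −0.53 ± 0.41 (SE), given as a description because the gene was shown for lower G4. It was −0.20 without scramble KD replicate 2 and −0.89 without scramble KD replicate 1. Both TERRA KD values were below both scramble KD values, as at 19.3% of these TSS. limma called 0.00% of them lower and 0.00% higher, with a smallest adjusted p of 0.347 and 206 TSS at an unadjusted p of at most 0.05.

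Irs1 had a G4 peak over its TSS in 3 lists. That peak held 14 tags in scramble KD replicate 1, 27 in replicate 2 of the same condition and 19 in TERRA KD replicate 1, at the 92.3rd, 44.4th and 63.4th percentile, and TERRA KD replicate 2 had none. A second peak began 420 bp downstream in scramble KD replicate 2 (35 tags, 57.5th percentile) and 338 bp downstream in TERRA KD replicate 1 (21 tags, 40.9th percentile). The peaks over the start reached from 908 to 717 bp upstream across the start and covered the 4 upstream motifs in all 3 lists, while no ATAC peak reached those motifs. The ATAC peak instead started 205 to 116 bp upstream and covered the 3 downstream motifs in all 4 lists. At Irs1 the G4 peak over the start thus lay mostly upstream of the ATAC peak at the start. The second G4 peak lay wholly downstream of the start and partly over that ATAC peak. Each ATAC list also had a peak more than 1 kb upstream.

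Acvr1 had a G4 peak at its TSS in 2 of 4 lists, and it was low in both. A peak of 5 tags at the 20.0th percentile was called in scramble KD replicate 1 and a peak of 7 tags at the 19.2nd percentile in TERRA KD replicate 1, and none in replicate 2 of either condition. So both conditions had the peak in replicate 1 and lacked it in replicate 2. Its promoter is shared with Upp2, which encodes a uridine phosphorylase, starts 506 bp upstream and reads the other way. The peak of TERRA KD replicate 1 ended 423 bp short of the Upp2 start and that of scramble KD replicate 1 ended 125 bp short, and no ATAC list held a peak across the Upp2 start. The main ATAC peak of Acvr1 lay inside the gene, from 41 to 248 bp downstream of the start onward. In scramble KD replicate 2 the nearest G4 peak began 1141 bp downstream of the Acvr1 start. Of the 7 motifs, 3 lay inside a G4 peak of at least 1 list.

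**Figure D4:**
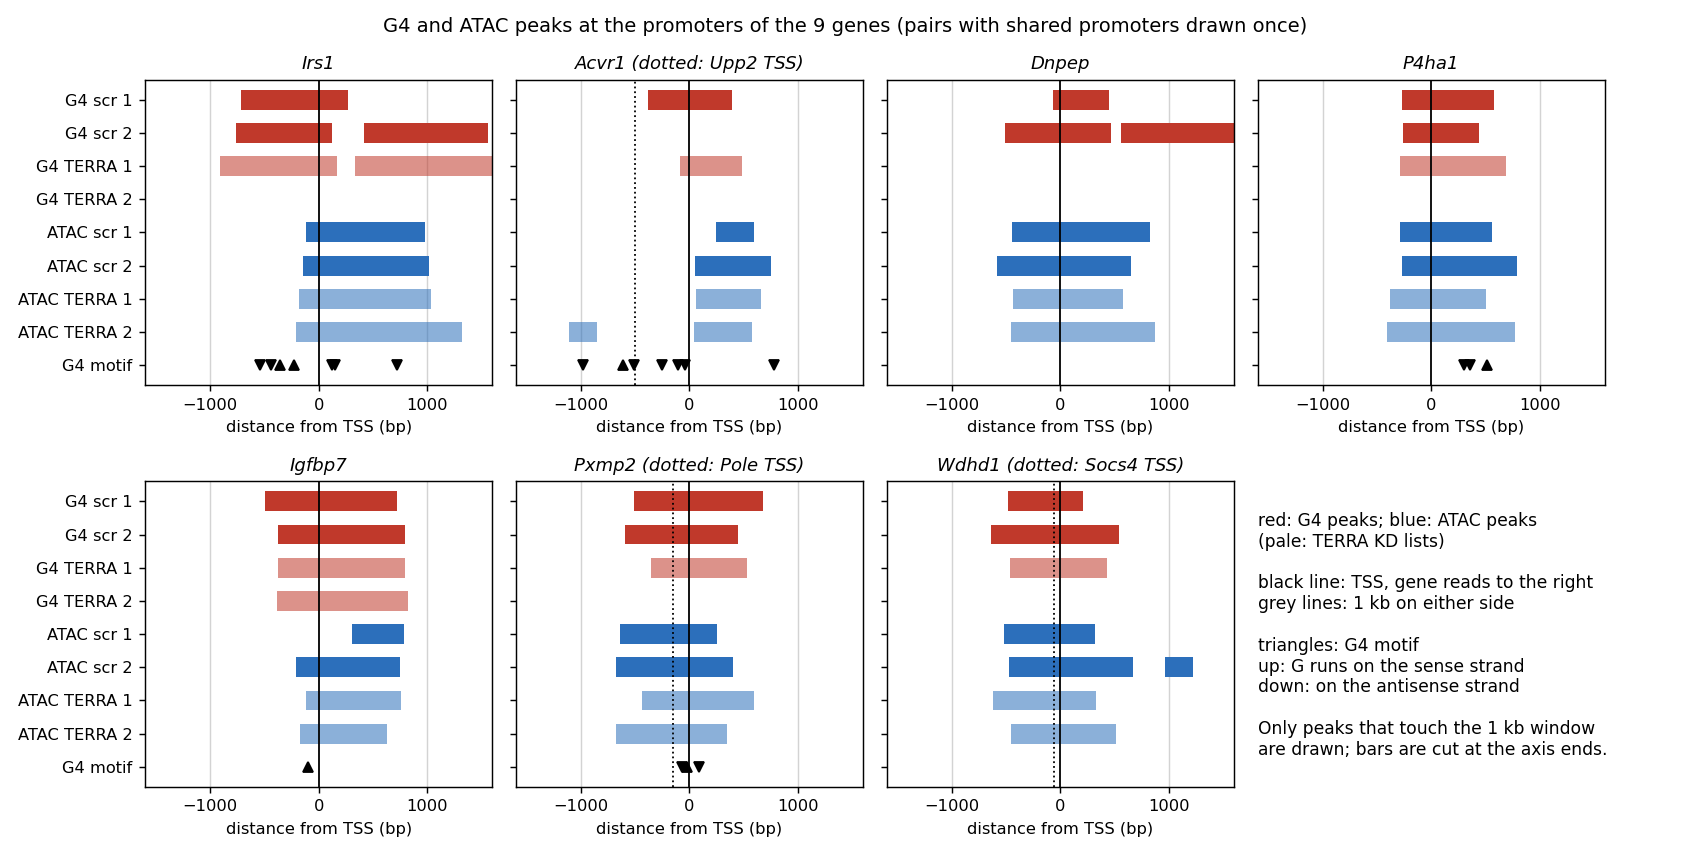
G4 peaks (red) and ATAC peaks (blue) by distance from the TSS at the 7 promoters, 1 row per list, with G4 motifs as triangles. The G4 and ATAC peaks lie over each other at P4ha1 and at the shared promoters, and those over the start are offset at Irs1. The G4 row of TERRA KD replicate 2 is empty in every panel except Igfbp7.

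At Dnpep the G4 peak over the start was called in scramble KD and not in TERRA KD, while a G4 peak further into the gene was called in all 4 lists. The start held a peak of 7 tags at the 68.2nd percentile in scramble KD replicate 1 (72 bp upstream to 453 bp downstream) and a peak of 24 tags at the 12.2nd percentile in replicate 2. Scramble KD replicate 2 had another peak of 162 tags at the 97.7th percentile, which began 561 bp downstream and ran to 4458 bp. The 526 bp covered by both scramble KD lists and by neither TERRA KD list (chr1:75317184-75317709) span the start, the first exon and part of the first intron.

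Further into Dnpep, 477 bp (chr1:75315019-75315495) lay under a G4 peak in all 4 lists, between introns 6 and 8. Those peaks held 5 tags in scramble KD replicate 1, 162 in scramble KD replicate 2, 8 in TERRA KD replicate 1 and 60 in TERRA KD replicate 2. A peak across the end of the gene was at the 94.4th percentile of scramble KD replicate 2 and at the 99.5th percentile of TERRA KD replicate 2, with 82 and 44 tags. So TERRA KD replicate 2, which had no peak at the Dnpep start, had 1 of its most highly ranked peaks at the other end of the same gene.

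P4ha1 had a G4 peak from about the same place in 3 lists, 284 to 256 bp upstream to 443 to 692 bp downstream. It held 9 tags in scramble KD replicate 1, 17 in replicate 2 of the same condition and 14 in TERRA KD replicate 1. The ranks were the 72.7th, 2.00th and 19.04th percentile, so replicate 2 of scramble KD was close to the limit of calling, with a −log10 p of 2.07 where peaks had been called at a p of 0.01. All 3 motifs of P4ha1 lay inside a G4 peak, and 2 of them in 3 G4 lists and 4 ATAC lists.

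The Pxmp2 and Pole promoter was covered by 1 G4 peak per list, which cannot be assigned to either gene. Pxmp2 encodes a channel of the peroxisomal membrane, and Pole the catalytic subunit of DNA polymerase epsilon, which copies the leading strand. The peak held 13 and 29 tags in scramble KD and 12 tags in TERRA KD replicate 1, at the 85.6th, 39.6th and 24.0th percentile, and spanned both starts. All 3 motifs were inside it in these 3 lists and inside an ATAC peak in 4 lists. On the Pole side, 159 bp of its first intron (chr5:110286523-110286681) were covered in both scramble KD lists and in neither TERRA KD list. They begin where the peak of TERRA KD replicate 1 ends, 203 bp downstream of the Pole start.

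The Wdhd1 and Socs4 promoter likewise had 1 G4 peak per list over both starts, with 5 and 32 tags in scramble KD and 14 tags in TERRA KD replicate 1. The ranks were the 32.4th, 41.6th and 25.8th percentile, and TERRA KD replicate 2 had none. The ranks in the 3 lists were thus close together, and lower than at Pxmp2 and Pole in 1 of the 3. Both pairs belong to the same pattern although only the former has G4 motifs with loops of up to 7 bases. At TSS with ATAC peaks in all 4 lists, a G4 peak was present at 63.9%, 74.8%, 68.3% and 14.3% of 10239 TSS with a motif. Without a motif it was present at 37.1%, 60.5%, 44.9% and 11.8% of 4711, in the order scramble KD 1 and 2, TERRA KD 1 and 2.

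Most of these TSS peaks were small. With a −log10 p of at least 5, a G4 peak was left at 6 and 3 genes under scramble KD, where 16.8% and 38.4% of all TSS kept one. It was left at 2 and 0 genes under TERRA KD, where 20.6% and 6.22% of all TSS did, a difference of −3.5. At this threshold the count of TERRA KD replicate 1 was also below those of both scramble KD lists, which its share of all TSS was not.

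Away from the starts, all 9 genes had G4 peaks in TERRA KD replicate 2. A G4 peak that touched the gene and lay wholly beyond 1 kb of the TSS was found in 7 genes in scramble KD replicate 1 (51.0% of all genes), 9 in replicate 2 of the same condition (70.1%), 7 in TERRA KD replicate 1 (58.2%) and 9 in its replicate 2 (62.2%). Pxmp2 and Socs4 were the genes without one in both replicates 1. The peaks numbered 10 and 68 under scramble KD against 18 and 39 under TERRA KD, and 32 of the 39 were in the 8 genes that had no TSS peak in that list. In the first exon and intron, which begin at the TSS, a G4 peak was found in 9 genes in each scramble KD list, where 45.7% and 70.7% of all genes had one. It was found in 8 genes (53.9% of all genes) and in 4 genes (40.3%) in the TERRA KD lists. These shares are not adjusted for gene length.

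Stretches of at least 100 bp covered in both TERRA KD lists and in neither scramble KD list were found at Acvr1 and Wdhd1. At Acvr1 this was 400 bp (chr2:58573486-58573885) from 7057 to 6658 bp upstream, and at Wdhd1 337 bp (chr14:47257033-47257369) in intron 14. Stretches with the opposite pattern were found in Dnpep, Igfbp7, P4ha1 and the Pxmp2 and Pole promoter. That of Igfbp7 was 622 bp long (chr5:77413176-77413797), more than 5 kb upstream, and that of P4ha1 119 bp in intron 8. The stretches of P4ha1 and of the Pxmp2 and Pole promoter adjoin a peak of TERRA KD replicate 1. In that list the border of the peak differed there, and not its presence. The share of all genes with such stretches was not counted.

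No ATRX or H3K9me3 peak was called within 1 kb of any of the 9 starts in any list. For ATRX, 0 of 9 genes had a peak in scramble KD replicates 1 and 2, where 1.07% and 0.588% of all TSS had one, and 0 of 9 in TERRA KD replicates 1 and 2, where 8.22% and 4.83% did. A peak in at least 1 of the 4 ATRX lists was found at 13.6% of all TSS. For H3K9me3, 0 of 9 genes had a peak in each list, where 2.28%, 1.96%, 2.35% and 2.07% of all TSS had one, and 5.23% had one in at least 1 list. The mean was 0 ± 0 (SD, n = 2) per condition for both assays. At shares this low, 0 of 9 is close to the background.

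Within the genes and the 10 kb upstream, 13 ATRX peaks were called in all, 3 and 1 under scramble KD against 6 and 3 under TERRA KD, and no place had an ATRX peak in more than 1 list. The lists themselves held 7321 and 13652 ATRX peaks under scramble KD against 41384 and 21718 under TERRA KD. Counted by gene, 4 and 1 of the 9 genes had such a peak under scramble KD, where 12.5% and 15.6% of all genes did, against 5 and 3 under TERRA KD, where 43.6% and 31.8% did. They held 4 to 24 tags and ranked between the 16.5th and the 85.5th percentile of their lists. Acvr1 had 3 in TERRA KD replicate 1, in introns 2, 7 and 11. Socs4 had 1 in TERRA KD replicate 1, 1.9 kb downstream in its first intron, and 1 in scramble KD replicate 1, 9.2 kb downstream, and the same places are upstream of Wdhd1. Irs1 and P4ha1 had 1 each in scramble KD replicate 1, 22.2 and 18.6 kb downstream, Pole had 1 in intron 40 in TERRA KD replicate 1, and Dnpep and Wdhd1 1 each in TERRA KD replicate 2. Pxmp2 had none.

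Igfbp7 had the ATRX peak with the most tags, 24 in scramble KD replicate 2, in its first intron 1.3 kb downstream of the start. An H3K9me3 peak of 11 tags, at the 4.87th percentile of its list, lay over 768 bp of the ATRX peak of 24 tags (chr5:77405890-77406657). Both peaks are from scramble KD replicate 2 and were called against the same input. The other ATRX peaks of Igfbp7 were in intron 2, 39.6 kb downstream in TERRA KD replicate 1 and 21.6 kb downstream in TERRA KD replicate 2. Igfbp7 thus had an ATRX peak in 3 lists, each at a different place, as did Wdhd1 when its 10 kb upstream were counted.

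H3K9me3 peaks near these genes numbered 8 in all, in 0 and 3 genes under scramble KD (20.6% and 30.7% of all genes) against 1 and 2 under TERRA KD (19.6% and 30.2%). Acvr1 held 5 of them, 2 in scramble KD replicate 2, 1 in TERRA KD replicate 1 and 2 in TERRA KD replicate 2. The peak in TERRA KD replicate 1 was 2722 bp long with 67 tags, around exon 9, below that list's medians of 3119.5 bp and 77 tags. The H3K9me3 lists differed by replicate number. The median peak length was 2404 bp (scramble KD) and 3119.5 bp (TERRA KD) in replicates 1. It was 491 and 515 bp in replicates 2. The peak in scramble KD replicate 2 at 5.2 kb downstream covers the other curated start of Acvr1, 5418 bp from the upstream one. Socs4 had 1 peak of 5 tags in exon 2 in scramble KD replicate 2. Igfbp7 had 1 in TERRA KD replicate 2, 7.9 kb upstream, besides the peak in its first intron.

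Relatives of the 9 genes were counted in lists of 4 to 28 genes. A G4 peak at the TSS in both scramble KD lists was found at 2 of 4 IRS adaptors, 9 of 12 TGF-beta superfamily receptors, 6 of 9 aminopeptidases and 5 of 7 collagen hydroxylases. It was found at 7 of 7 IGF binding proteins, 5 of 8 SOCS genes, 3 of 13 peroxisomal membrane proteins and 5 of 28 replisome genes, beside 34.7% of all TSS. The counts include the 9 genes, which were picked for G4 signal. In all 4 G4 lists a peak was found at Igfbp7 and Igfbp1 and at no other gene of these 8 lists, beside 9.16% of all TSS. In both scramble KD lists and neither TERRA KD list a peak was found at Dnpep, Igfbp2, Timeless and Tipin, beside 4.74% of all TSS. Timeless and Tipin form the fork protection complex.

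ATAC peaks in all 4 lists marked 28 of 28 replisome genes, 13 of 13 peroxisomal membrane proteins, 8 of 8 SOCS genes and 7 of 9 aminopeptidases. They marked 6 of 7 collagen hydroxylases, 9 of 12 receptors, 5 of 7 IGF binding proteins and 3 of 4 IRS adaptors. Such peaks were found at 57.1% of all TSS, and the counts include the 9 genes, all of which had them. Of all these relatives, Gins4, a subunit of the GINS complex of the replicative helicase, was the only gene with an ATRX peak at the TSS in both TERRA KD lists and in neither scramble KD list. That pattern was found at 0.710% of all TSS. None of the relatives had an H3K9me3 peak at the TSS.

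The presence or absence of a TSS peak over all 16 lists was the same at Irs1, P4ha1, Pxmp2, Pole, Wdhd1 and Socs4, and each of them shared it with 3199 of 21000 coding genes, the rest of these 6 included. The patterns of Acvr1, Dnpep and Igfbp7 were shared with 658, 791 and 786 other coding genes. Among genes of the same pattern, those with the smallest mean difference in the percentile of the TSS peak over the 8 G4 and ATAC lists were Cd302 for Irs1 (3.73 percentile points) and Upp2 for Acvr1, which shares its peaks. They were Cyhr1 for Dnpep (1.65), Taf4b for P4ha1 (2.45), Bak1 for Igfbp7 (4.1) and Cox6a1 for Pxmp2 and Pole (2.76).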

How the data were processed

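The authors' 16 deposited peak lists were used as given. Reads had been trimmed with Trim Galore version 0.5.0, aligned to mm10 (GRCm38) with Bowtie2 version 2.3.4.1 and deduplicated with SAMtools version 1.9. Peaks were called per library at a p of 0.01, with MACS version 1.4.3 for ATRX and H3K9me3 and version 1.4.2 for G4, against input, and with MACS version 2.2.7.1 for ATAC, without input. In the deposited ATRX, H3K9me3 and G4 lists the authors give the count of tags per peak, unscaled. The authors' score is −10 times the log10 of the peak's p, and their fold enrichment is a ratio to the local background. The deposited percent false discovery rate was not used. For ATAC the deposited lists hold the pileup signal, the fold enrichment over the same library and the −log10 p. The 6 input samples were not analysed here.

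TSS were the most upstream curated RefSeq starts (GRCm38.p6, 45756 transcripts). A peak counted when at least 1 bp lay within 1000 bp of the TSS, and the highest peak was that of lowest p. Percentiles are ranks of −log10 p within a list. Samples were grouped by their public labels, and numbers of genes with a peak were compared as means over 2 samples, without a p, since the genes were chosen. Enrichment was compared with limma version 3.58.1 in R version 4.3.3, with Benjamini-Hochberg adjustment over all TSS tested, after a check on simulated data. Genes named are the 9 genes, those starting within 1000 bp of them, relatives by the stated patterns, and the genes of nearest pattern, of which that of Wdhd1 and Socs4 is not reported here. The 9 genes, the gene lists and the tests were chosen with earlier results of these data known. Other settings were −log10 p of at least 5, windows of 500 and 3000 bp, the peak centre, equal list lengths, all starts, other normalization, filter and measure, each sample left out, and a replicate block.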

Additional observations from a re-analysis of the deposited data

How the results depend on the processing

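The counts of the 9 genes with a TSS peak kept their direction for G4 and ATAC and moved away from 0 for ATRX and H3K9me3. For G4 the difference ran from −7.5 to −0.5 when 1 sample was left out, and from −4 to −2.5 under the other settings. For ATAC it was 0 under all settings. With a window of 3000 bp the ATRX difference was 0.5 (Igfbp7 in scramble KD replicate 2, Wdhd1 and Socs4 in TERRA KD replicate 1) and the H3K9me3 difference −0.5 (Igfbp7 in scramble KD replicate 2). With all curated starts the H3K9me3 difference was −0.5, through the downstream start of Acvr1. With the window of 3000 bp, TERRA KD replicate 2 had a G4 peak at 4 of the 9 genes. The shares of all TSS with a peak in that window were not counted.

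limma called 1 TSS for G4 with a window of 3000 bp and 0 otherwise, apart from 0 to 1 when 1 sample was left out (1 without scramble KD replicate 1), and 0 for ATAC, with 0 to 1 when 1 sample was left out (1 without TERRA KD replicate 2). No TSS of the 9 genes was called for ATAC in these fits. For G4 the fits held Igfbp7 in all settings except −log10 p of at least 5, and most held no other of the 9 genes. The window of 3000 bp added Dnpep, Wdhd1 and Socs4. The fit without TERRA KD replicate 2 lacked only Acvr1 and Dnpep, and that of TSS with a peak in at least 1 list held all 9. The ATAC difference at Irs1 turned negative in 4 of 13 settings, at −0.0210 with a window of 3000 bp, −0.0017 with pileup scaled to depth, and −0.0893 and −0.0434 without scramble KD replicate 1 and without TERRA KD replicate 1 (−0.0893 to 0.201 when 1 sample was left out). The cause was not tested. At the other 6 promoters the sign held in all 13 and the size did not. When 1 sample was left out it ran from 0.04 (without TERRA KD replicate 2) to 0.26 (without TERRA KD replicate 1) at Acvr1 and from 0.05 to 0.31 (without the same samples) at Wdhd1 and Socs4. It ran from 0.03 (without scramble KD replicate 2) to 0.25 (without scramble KD replicate 1) at Dnpep, and without the same samples from −0.39 to −0.12 at Pxmp2 and Pole and from 0.35 to 0.15 at Igfbp7. At P4ha1 it ran from 0.03 (without TERRA KD replicate 1) to 0.17 (without TERRA KD replicate 2).

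The replicate numbers are shared between conditions. The sample labels name no batch, while the names of the deposited lists give same-numbered samples of an assay the same lane, so each lane holds 1 sample per condition. Deviations from the condition mean correlated between same-numbered samples with an r of 0.12 over 2398 TSS for G4 and 0.10 over 14950 TSS for ATAC. With the replicate block the G4 difference in genes was −4 and limma called 0 TSS for G4 and 0 for ATAC. A count of 5 to 19 tags per peak in scramble KD replicate 1 limits what the shallowest G4 list shows.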
